A study of Oncorhynchus mykiss with 6 samples.

Results

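The oxidative phosphorylation genes of rainbow trout dorsal skin comprised 229 of the 43862 genes in the deposited table. They were chosen by annotation and not by expression: 216 nuclear genes carried the oxidative phosphorylation pathway identifier without the lysosome pathway identifier, and 13 genes were the protein-coding genes of the mitochondrial genome. Of the nuclear genes, 176 encoded subunits of the respiratory complexes, with 66 in complex I, 10 in complex II, 23 in complex III, 46 in complex IV and 31 in complex V. The other nuclear genes were 23 V-type ATPase genes, 5 assembly genes of complex IV, 4 genes of the gastric H+/K+-ATPase and 8 inorganic pyrophosphatase genes. Because the rule left out genes shared with the lysosome pathway, the V-type ATPase was covered only in part. NDUFA4, long listed under complex I, was counted with complex IV, where the protein is now placed.

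The study profiled dorsal skin of rainbow trout (Oncorhynchus mykiss) of the yellow mutant phenotype by RNA sequencing. The libraries came from total RNA extracted with Trizol, with 3 from fish aged 1 day and 3 from fish aged 90 days. All 6 libraries were of the yellow mutant, so age was the only difference that the labels recorded between the groups, and no wild-type library entered a comparison. The labels did not say whether replicates came from separate fish, so p-values measure the spread between these libraries, which may be technical.

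Oxidative phosphorylation passes electrons from NADH and succinate through complexes I to IV of the inner mitochondrial membrane to oxygen, and the proton gradient built on the way drives ATP synthesis by complex V. Complexes I, III, IV and V are assembled from subunits of both the nuclear and the mitochondrial genome, whereas complex II is wholly nuclear. Salmonid fish descend from an ancestor whose genome was duplicated, so most subunits have more than 1 gene copy.

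Each library held between 16157312 and 18960866 counts. FPKM values, the deposited levels per transcript length and library size, are printed for each library. Fold changes are log2 values of day 90 over day 1 from edgeR's quasi-likelihood test on counts with TMM scaling, given ± SE, with Benjamini-Hochberg (BH) adjusted p-values over all 29436 genes tested and a threshold of 0.05. TMM factors were 1.11 to 1.17 at day 1 and 0.823 to 0.914 at day 90, so that the median log2 fold change of all genes was -0.03 with TMM and -0.43 with scaling by library size alone. A gene with equal FPKM at both ages therefore has a TMM fold change of about that difference, and calls that library size alone removes or adds are given beside the genes they concern. The third scaling, to 73 keratinocyte marker genes, moved the median of all genes to -1.37.

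The tissue changed broadly between the ages. Across all genes, 67.9% passed the threshold, 32.5% higher and 35.4% lower at day 90. Keratinocyte markers ranged from 0.877% to 0.889% of counts in the day 1 libraries and from 3.03% to 3.86% in those of day 90, with 49 of 73 tested marker genes higher and 16 lower. Skeletal muscle markers took 3.06% to 3.70% at day 1. At day 90 they took 1.55% in replicate 1 and 0.463% and 0.459% in replicates 2 and 3, with 38 of 63 tested genes lower and 10 higher. Of the 68 muscle marker genes, 4 were at 0 in all day 90 libraries, and of these Tnni2 (110492948) had 308 to 395 counts in the day 1 libraries and the others at most 10. Neuron markers (0.229% to 0.263% at day 1 and 0.039% to 0.0424% at day 90) and lens and retina markers (0.239% to 0.309% and 0.000696% to 0.000957%) were also lower. Liver and yolk markers were lower in 20 of 22 tested genes and higher in 1, and lens and retina markers were lower in 29 of 30. Immune markers were higher in 6 of 6 tested genes and adipocyte markers in 7 of 9. A difference in the tissue taken, fewer cells of a type and less RNA per cell cannot be told apart in such bulk samples. The part of these markers in the results below was not tested. A value without replicate 1 of day 90 shows only how far a result depends on that library.

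Of the 170 nuclear subunit genes of complexes I to V that could be tested, 101 were higher at day 90, 13 were lower and 56 did not pass. Across all genes tested, 32.5% were higher and 35.4% lower. Their median log2 fold change was 0.52, and 145 of the 170 lay within 2-fold, against 61.0% of all genes tested. With scaling by library size alone the median was 0.12, with 40 genes higher and 31 lower, beside 20.2% and 50.6% of all genes. With keratinocyte scaling it was -0.80, with 4 higher and 133 lower, beside 6.76% and 80.9% of all genes. All 13 mitochondrial genes were tested, and 10 were higher, none was lower and 3 did not pass, with a median of 0.73. The median was 0.33 by library size alone, with 7 higher and 1 lower, and -0.60 with keratinocyte scaling. Under each scaling the medians of both genomes lay above the median of all genes. A change of scaling shifts all genes by nearly the same amount, so these are not separate results.

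Replicate 1 of day 90 stood apart in these genes. It had the highest FPKM of the 3 day 90 libraries for 155 of the 170 nuclear subunit genes and 12 of the 13 mitochondrial genes, against 27.4% of all genes tested. Nuclear subunits together took 1.02%, 1.06% and 1.09% of counts at day 1, and 1.31%, 1.04% and 0.955% at day 90. Without that library, 84 nuclear subunit genes were higher and 20 lower, beside 31.4% and 36.1% of all genes, with a median log2 fold change of 0.30, and 10 mitochondrial genes were higher with a median of 0.59. The same library had the highest share of skeletal muscle markers at day 90, and the part of those markers in its levels was not tested.

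**Figure D1:**
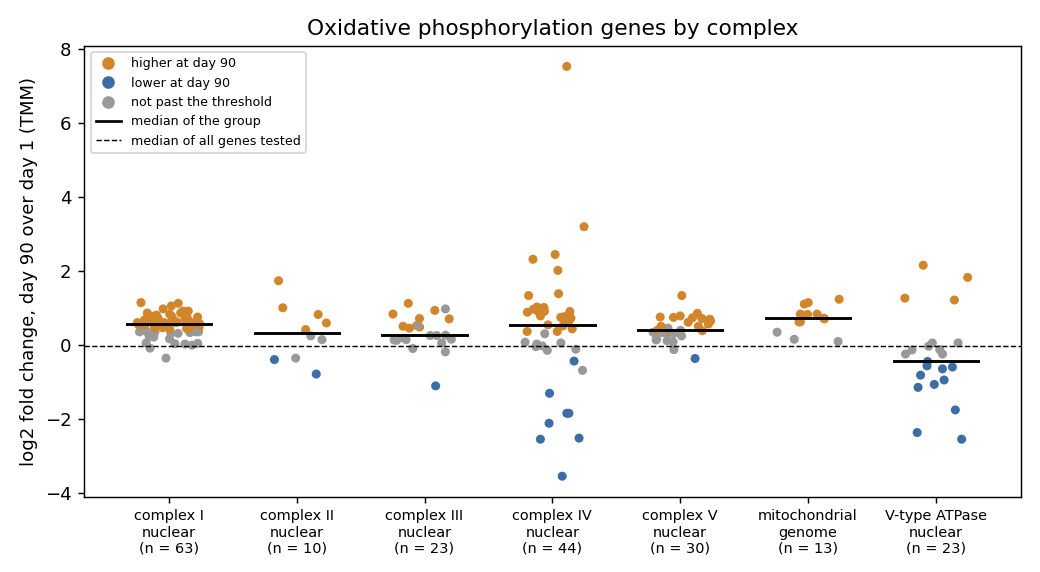
Log2 fold change of day 90 over day 1 (vertical axis, edgeR with TMM scaling) for each tested gene of complexes I to V, the mitochondrial genome and the V-type ATPase. Points are genes, solid bars are group medians and the dashed line is the median of all genes at -0.03. Complex IV spreads from -3.54 to 7.53, while complexes I and V stay close to their medians of 0.57 and 0.41, which are 0.16 and 0.00 by library size alone and -0.75 and -0.91 with keratinocyte scaling. NDUFA4L2 (110532049) and ATP6V1B2 (110509654), with at most 3 counts at day 90, are left out as points but counted in the medians.

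Complex I, the NADH dehydrogenase, takes electrons from NADH into the chain. Of its 63 tested nuclear genes, 45 were higher at day 90, none was lower and 18 did not pass, beside 32.5% higher and 35.4% lower of all genes. Library size alone gave 13 higher and 6 lower, beside 20.2% and 50.6% of all genes. The median was 0.57 with TMM, 0.16 by library size alone and -0.75 with keratinocyte scaling. All TMM log2 fold changes lay between -0.35 and 1.15. The 13 tested genes of the catalytic core had a median of 0.53, and 9 of them were higher. The 50 tested genes of accessory subunits, which surround the core, had a median of 0.61, and 36 were higher. Of the 25 complex I subunits with at least 2 tested copies, none had copies called in opposite directions, and the copies of a subunit differed by 0.91 or less on the log2 scale.

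Ndufa1 (100301838), an accessory subunit of the membrane arm, had 83.2, 88.1 and 83.8 FPKM at day 1 and 130.2, 112 and 105 FPKM at day 90. All day 90 libraries lay above all day 1 libraries, and the log2 fold change was 0.84 ± 0.13 (edgeR, BH-adjusted p = 0.00032). NDUFB1 (100305186), another membrane arm accessory subunit, had 75.8, 75.1 and 72.3 FPKM at day 1 and 118, 100.04 and 105 FPKM at day 90. Its groups did not overlap either, with a log2 fold change of 0.92 ± 0.12 (edgeR, BH-adjusted p = 9.1e-05). The copy of NDUFV3 numbered 110520626, an accessory subunit of the NADH-binding module, had 4.31, 4.99 and 4.03 FPKM at day 1 and 8.08, 7.61 and 6.57 FPKM at day 90. Its log2 fold change was 1.13 ± 0.15 (edgeR, BH-adjusted p = 0.00011). The 3 genes were higher under library size scaling also, but their fold changes were below 0 with keratinocyte scaling, at -0.49, -0.41 and -0.20.

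The most abundant complex I genes showed how the scaling decides small differences. NDUFB2 (100301658) had 89.4, 110.1 and 98.6 FPKM at day 1 and 112, 103 and 102 FPKM at day 90. The ages overlapped in FPKM, while the TMM log2 fold change was 0.48 ± 0.13 (edgeR, BH-adjusted p = 0.0076) and that by library size alone was 0.08 and did not pass. NDUFC1 (110505009) had 81.1, 82.7 and 89.3 FPKM at day 1 and 120.0, 92.1 and 82.7 FPKM at day 90, with replicate 1 of day 90 apart from the others. Its log2 fold change was 0.61 with TMM (edgeR, BH-adjusted p = 0.0098) 0.38 without that library, and 0.21 by library size alone, which did not pass. At the level of subunits, FPKM summed over copies ran from 0.786 of the day 1 level for NDUFC2 to 1.44-fold for NDUFA13 and NDUFB1 over the 37 nuclear subunits. Ages did not overlap for 14 of the 37 sums, with day 90 above for 12 and day 1 above for 2 (NDUFC2 and NDUFA10), beside 22.3% and 52.9% of all genes.

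Complex II, succinate dehydrogenase, also works in the citrate cycle. Of its 10 genes, 5 were higher, 2 were lower and 3 did not pass, beside 32.5% higher and 35.4% lower of all genes. The median was 0.33 (-0.07 by library size alone and -0.99 with keratinocyte scaling). Of 3 copies of SDHA, the flavoprotein that oxidises succinate, 2 were higher, and sdha (110488064) did not pass, at 13.7, 13.8 and 14.7 FPKM at day 1 and 14.2, 11.5 and 12.5 FPKM at day 90. The copy numbered 110496683 had 36.2, 37.2 and 35.6 FPKM at day 1 and 57.5, 45.1 and 45.3 FPKM at day 90, with a log2 fold change of 0.83 ± 0.15 (edgeR, BH-adjusted p = 0.00073), and the copy numbered 110520756 had a log2 fold change of 1.01 ± 0.10 (edgeR, BH-adjusted p = 1.5e-05). The ages did not overlap for either of the higher copies.

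The copies of the iron-sulfur subunit SDHB were called in opposite directions. The minor copy 110492247 had 4.93, 4.47 and 5.53 FPKM at day 1 and 13.6, 11.9 and 12.8 FPKM at day 90, with a log2 fold change of 1.74 ± 0.14 (edgeR, BH-adjusted p = 4.9e-06). It stayed above 0 under keratinocyte scaling, at 0.41. The main copy 110494374 (42.3 ± 3.0 FPKM at day 1 and 43.1 ± 6.5 at day 90, SD, n = 3) overlapped between the ages, had a log2 fold change of 0.42 (0.23 without replicate 1 of day 90, and 0.02 and not called by library size alone) and lost its call when any of 4 of the 6 libraries was left out. The copy 110528062 was lower, with a log2 fold change of -0.78 (edgeR, BH-adjusted p = 0.031), a call lost when any of 5 of the 6 libraries was left out. Of the membrane anchor SDHC, copy 110508324 was higher (0.60, edgeR, BH-adjusted p = 0.0039, not called by library size alone at 0.20) and copy 110530767 was lower (-0.39, edgeR, BH-adjusted p = 0.045, -0.59 without replicate 1 of day 90, lost when any of 4 of the 6 libraries was left out). The summed FPKM of SDHD, the other anchor, was 45.7, 47.0 and 50.5 at day 1 and 40.8, 31.9 and 30.4 at day 90. That ratio of 0.72 was the lowest of the 74 nuclear subunits.

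Complex III, the cytochrome bc1 complex, passes electrons from ubiquinol to cytochrome c. Of its 23 nuclear genes, 9 were higher, 1 was lower and 13 did not pass, beside 32.5% higher and 35.4% lower of all genes. The median was 0.27 (-0.13 by library size alone and -1.06 with keratinocyte scaling). Library size alone gave 2 higher and 4 lower, beside 20.2% and 50.6% of all genes. Both genes that stayed higher by library size alone were copies of UQCRB, the subunit that contacts the mitochondrial cytochrome b. The copy 110488002 had 85.1, 84.1 and 82.6 FPKM at day 1 and 138, 111 and 121 FPKM at day 90, with a log2 fold change of 0.94 ± 0.13 (edgeR, BH-adjusted p = 0.00012). The copy 110496618 had 26.7, 29.7 and 27.9 FPKM at day 1 and 53.7, 47.5 and 39.1 FPKM at day 90, with a log2 fold change of 1.13 ± 0.16 (edgeR, BH-adjusted p = 0.00015). The ages did not overlap for either copy, and with keratinocyte scaling the values were -0.38 and -0.19, neither called.

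Summed over its copies, UQCRB was 1.52-fold higher at day 90 in FPKM, and it was the only complex III subunit of 9 whose sums did not overlap between the ages. Of the 3 complex III genes with the highest mean FPKM, UQCRB (110488002) was the one that passed. UQCR10 (110537172), a small membrane subunit, had 143, 153 and 174 FPKM at day 1 and 156, 127 and 113 FPKM at day 90, and CYC1 (110527651), the cytochrome c1 that hands electrons on, had 99.8, 104 and 113 FPKM against 121, 91.0 and 76.0 FPKM. In both genes the libraries of the ages interleaved. The call of lower expression was that of an assembled locus matched to UQCR10 (MSTRG.6824), at 2.71 ± 0.19 FPKM at day 1 and 0.98 ± 0.36 at day 90 (SD, n = 3), with a log2 fold change of -1.10 ± 0.26 (edgeR, BH-adjusted p = 0.0047).

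Complex IV, cytochrome c oxidase, reduces oxygen to water, and copies of several of its subunits were called in opposite directions. Of 44 tested nuclear genes, 26 were higher, 9 were lower and 9 did not pass, beside 32.5% higher and 35.4% lower of all genes. Library size alone gave 19 higher and 16 lower, beside 20.2% and 50.6% of all genes. The median was 0.54 with TMM, 0.13 by library size alone and -0.79 with keratinocyte scaling. The TMM log2 fold changes ran from -6.06 to 7.53. Of the 44 genes, 27 were within 2-fold, beside 60 of 63 in complex I and 29 of 30 in complex V. The share within 2-fold was 61.4% in complex IV and 61.0% among all genes tested. Of the 11 subunits, all with at least 2 tested copies, 4 had copies called in opposite directions (COX4, COX7A, COX8 and NDUFA4), and copies of a subunit differed by up to 11.06 on the log2 scale. In vertebrates several of these subunits have tissue isoforms, and the deposited counts may divide reads of near-identical copies uncertainly. Shares of a copy within its subunit do not depend on the scaling between libraries.

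COX4 is the largest nuclear subunit of the oxidase, and in mammals its isoform 2 is known from lung and from low oxygen. The copy named COX4I1 with the product name isoform 2 (110532257) had 0.51, 0.06 and 0.24 FPKM at day 1 and 52.6, 31.0 and 33.5 FPKM at day 90. It was close to 0 in all day 1 libraries and above 30 FPKM in all day 90 libraries, with a log2 fold change of 7.53 ± 0.43 (edgeR, BH-adjusted p = 5.1e-07) of 7.18 without replicate 1 of day 90 and of 8.28 without replicate 1 of day 1. Its neighbour in the annotation, COX4I2 (110532258), had at most 0.07 FPKM in any library and was not tested. A copy with the product name isoform 1 (110535290) went the other way. It had 10.04, 8.1 and 11.2 FPKM at day 1 and 0.79, 0.73 and 0.41 FPKM at day 90, a log2 fold change of -3.54 ± 0.29 (edgeR, BH-adjusted p = 5e-06). Copies 110532257 and 110535290 each reached the FPKM minimum of the filter at a single age.

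The main isoform 1 copies of COX4, 110526482 (169 ± 11 FPKM at day 1 and 160 ± 25 at day 90, SD, n = 3) and 110506609 (139 ± 7.9 and 113 ± 15), did not pass with TMM scaling, and the latter was lower by library size alone at -0.34. The other copy named isoform 2 (110492636) overlapped between the ages and was higher with TMM scaling (0.37, edgeR, BH-adjusted p = 0.014), a call lost without replicate 1 of day 1 and by library size alone, at -0.02. Copies named isoform 2 together made up 10.8%, 10.5% and 9.67% of COX4 FPKM at day 1 and 22.3%, 19.8% and 22.3% at day 90. The summed FPKM of COX4 was 335, 357 and 372 at day 1 and 409, 328 and 309 at day 90, so the ages overlapped in the sum while they did not in its makeup.

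COX6A, a small subunit with a liver and a heart and muscle isoform in mammals, also changed in makeup. With TMM scaling 2 of its 4 copies were called higher and none lower. The symbols of the copies do not tell these isoforms apart. The copy 110486671 had 8.99, 9.83 and 6.76 FPKM at day 1 and 90.8, 42.1 and 44.2 FPKM at day 90, and the log2 fold change was 3.20 ± 0.34 (edgeR, BH-adjusted p = 2.7e-05). The copy 100335037 had 18.4, 13.7 and 12.5 FPKM at day 1 and 87.7, 36.4 and 43.1 FPKM at day 90, and its log2 fold change was 2.32 ± 0.35 (edgeR, BH-adjusted p = 0.00026). All day 90 libraries were above all day 1 libraries for both, with replicate 1 of day 90 the highest. Without that library the log2 fold changes were 2.67 and 1.75, and both still passed. The other copies, 110525543 (146 ± 19 and 109 ± 10 FPKM, SD, n = 3) and 110535921 (83.9 ± 4.3 and 65.6 ± 6.4 FPKM), did not pass with TMM scaling and were lower by library size alone, at -0.44 and -0.37.

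COX7A, another small subunit with muscle and ubiquitous isoforms in mammals, had 8 tested copies, of which 3 were higher and 4 were lower. Cox7a2 (110503623) had 21.4, 26.5 and 27.3 FPKM at day 1 and 134, 49.5 and 45.6 FPKM at day 90, a log2 fold change of 2.02 ± 0.41 (edgeR, BH-adjusted p = 0.0018) and of 1.25 without replicate 1 of day 90. COX7A2 (110522088) had 12.3, 18.7 and 13.8 FPKM at day 1 and 3.34, 3.77 and 2.38 FPKM at day 90, a log2 fold change of -1.84 ± 0.26 (edgeR, BH-adjusted p = 0.00017). Replicate 1 of day 90 was high in the former and not in the latter.

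Among the remaining COX7A copies, COX7A2 (110505390) was lower (-0.43), as were COX7A2L (110502341, -1.30), a relative that joins complexes into supercomplexes, and the locus MSTRG.11905 (-2.11, and -2.92 without replicate 2 of day 90). That locus reached the FPKM minimum of the filter only at day 1, so being tested at all went with that direction. COX7A2L (110527164, 0.91) and COX7A2 (110498059, 0.52) were higher with TMM scaling, though with keratinocyte scaling they were at -0.42 and -0.81, and the latter was not called by library size alone at 0.12. COX7A2L (110491388) did not pass, at 22.8, 24.2 and 24.5 FPKM at day 1 and 22.3, 14.2 and 12.6 FPKM at day 90, and was lower by library size alone at -0.55.

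NDUFA4 is a subunit of the oxidase whose relative NDUFA4L2 is known in mammals as a gene induced by low oxygen. Ndufa4 (110494772) had 45.2, 49.7 and 46.9 FPKM at day 1 and 6.29, 6.17 and 6.63 FPKM at day 90. The libraries of each age lay close together, and the log2 fold change was -2.51 ± 0.11 (edgeR, BH-adjusted p = 1.1e-07). The 2 abundant copies, 100653434 (267 ± 12 and 338 ± 36 FPKM, SD, n = 3) and 110538650 (249 ± 7.3 and 322 ± 50 FPKM), were higher, at 0.73 and 0.77, and were at -0.59 and -0.55 with keratinocyte scaling. The gene with the symbol NDUFA4L2 (110532049) has the product name NDUFA4-like, so which of the relatives it encodes is unclear. It had 119 counts over the day 1 libraries and 1 over the day 90 libraries. That was an 87.0-fold difference in scaled counts with an exact 95% interval for counting error of 15.0 to 3459. This gene reached the FPKM minimum of the filter only at day 1, so being tested at all went with that direction. The adjacent Ndufa4l2 genes moved apart: 110492352 had 8.24 ± 0.74 FPKM at day 1 and 1.80 ± 0.33 at day 90 (-1.84, edgeR, BH-adjusted p = 5e-05), and 110492353 had 1.18 ± 0.081 and 2.35 ± 0.13 FPKM (1.39, edgeR, BH-adjusted p = 0.0003).

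COX8 and COX6B also have tissue isoforms. COX8 (110529740) had 5.75, 6.49 and 6.5 FPKM at day 1 and 1.33, 0.55 and 0.49 FPKM at day 90, a log2 fold change of -2.54 ± 0.36 (edgeR, BH-adjusted p = 0.00019) and of -3.23 without replicate 1 of day 90. The locus MSTRG.3430, matched to COX8B, had 47.7, 48.3 and 47.8 FPKM at day 1 and 77.7, 63.3 and 64.5 FPKM at day 90, a log2 fold change of 0.91 ± 0.13 (edgeR, BH-adjusted p = 0.00019). COX8B (110524599) had 41.6, 47.9 and 52.4 FPKM at day 1 and 94.96, 45.1 and 45.6 FPKM at day 90, and its call (0.79, edgeR, BH-adjusted p = 0.04) was lost without replicate 1 of day 90 (0.26), without each day 1 library, and by library size alone (0.38). COX8B (110534122, 0.37, edgeR, BH-adjusted p = 0.049, and -0.03 and not called by library size alone) overlapped between the ages and lost its call when any of 4 of the 6 libraries was left out. MSTRG.33123 did not pass (-0.68, and lower by library size alone at -1.08) and MSTRG.30768, at 1.67 FPKM or less, was not tested.

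Of the COX6B copies, which face the site where cytochrome c docks, COX6B1 (110491567) had 31.8, 34.0 and 39.6 FPKM at day 1 and 73.5, 46.9 and 43.2 FPKM at day 90. Its log2 fold change was 1.03 ± 0.23 (edgeR, BH-adjusted p = 0.0029), and 0.68 without replicate 1 of day 90. Cox6b1 copies 110509074 and 110537243 were higher at 0.67 and 0.68, the former not called by library size alone at 0.27, and copy 110489328 did not pass at 0.08. The keratinocyte-scaled values of the 4 copies were all below 0.

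Some complex IV subunits had all copies higher. Summed FPKM of COX6C was 180, 181 and 185 at day 1 and 333, 290 and 253 at day 90, a ratio of 1.61 that was the highest of the 74 nuclear subunits. COX6C (110493851) itself had 60.6, 63.9 and 61.9 FPKM against 127, 126 and 106 FPKM, with a log2 fold change of 1.34 ± 0.13 (edgeR, BH-adjusted p = 1.3e-05). COX7B and COX7C, small membrane subunits, had ratios of 1.51 and 1.48 in summed FPKM. Cox7c (110525312) had 198, 203 and 210 FPKM at day 1 and 347, 299 and 263 FPKM at day 90, a log2 fold change of 0.97 ± 0.15 (edgeR, BH-adjusted p = 0.00032). These genes stayed higher by library size alone, and with keratinocyte scaling COX6C (110493851) was at 0.01 and Cox7c (110525312) at -0.36.

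COX5B (110526243), a zinc-binding matrix subunit named here after its values were seen, had 22.9, 22.5 and 23.8 FPKM at day 1 and 148, 73.7 and 64.0 FPKM at day 90, a log2 fold change of 2.45 ± 0.32 (edgeR, BH-adjusted p = 0.00011). It made up 12.1%, 10.6% and 11.2% of COX5B FPKM at day 1 and 46.3%, 32.3% and 32.3% at day 90. CKMT2 (110523823), the mitochondrial creatine kinase of striated muscle and a gene of the muscle marker list, had 24.1, 23.4 and 27.9 FPKM at day 1 and 146, 55.0 and 54.6 FPKM at day 90. The other copy, CKMT2 (110537102), went the opposite way, with 15.2, 12.3 and 17.8 FPKM at day 1 and 0, 0.04 and 0 FPKM at day 90, as did most genes of that list. The libraries of CKMT2 (110523823) lay in the same order of groups as those of COX5B (110526243), Cox7a2 (110503623) and the higher COX6A copies, with replicate 1 of day 90 highest and all day 90 libraries above day 1. Replicate 1 was the highest day 90 library for 155 of the 170 nuclear subunit genes, so that part of the order was not particular to these copies. Of the 63 tested muscle marker genes, 10 were higher, CKMT2 (110523823) among them, and 38 lower. The likeness was noticed after the values were seen, and the part of muscle in these copies was not tested. Heart markers ranged from 0.0365% to 0.0455% of counts in the day 1 libraries and from 0.0779% to 0.11% in those of day 90. Of 15 tested genes, 6 were higher and 7 lower, beside 32.5% and 35.4% of all genes, with a median log2 fold change of -0.59. At day 90, 7 of 20 genes were at 0. Among these, MYH6 (MSTRG.20802) had 0 counts in every library, MYH6 (118966738) at most 1 and TNNT2 (110500917) at most 7, while nppa had 74 to 129 at day 1. The higher heart genes were Myh6 copies with the product name myosin-7 or myosin-7-like and copies of TNNT2. MYL7 (110536312) went from 423, 446 and 499 counts at day 1 to 1, 0 and 0 at day 90, and nppa also fell. The part of heart markers was not tested either.

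**Figure D2:**
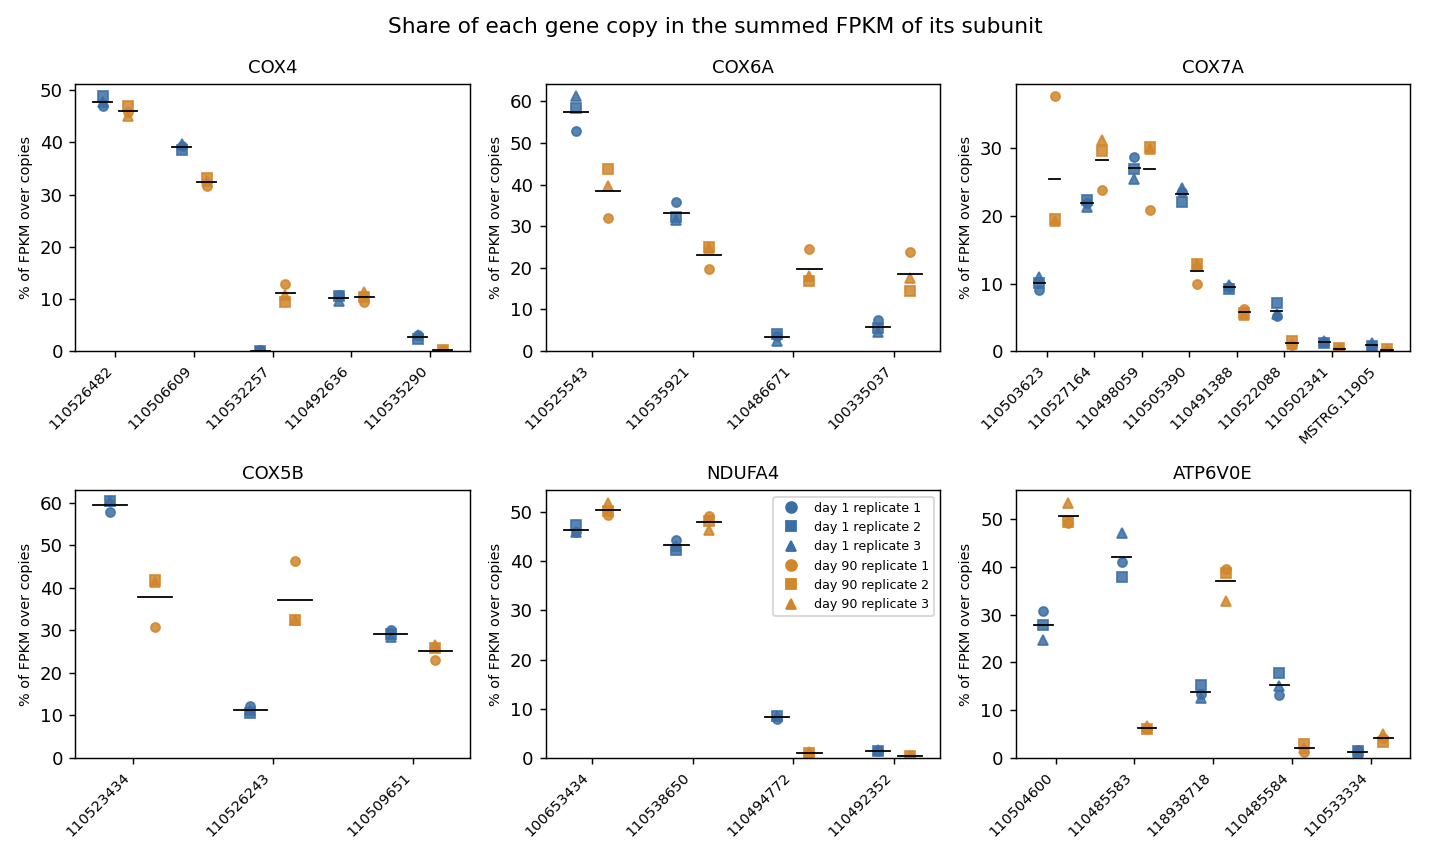
Share of each gene copy in the summed FPKM of its subunit (vertical axes, percent), for copies of COX4, COX6A, COX7A, COX5B, NDUFA4 and ATP6V0E that reached 1% in a library. Points are libraries, with day 1 in blue and day 90 in orange, and bars are group means. COX4 copy 110532257 and the minor COX6A copies 110486671 and 100335037 have larger shares at day 90, Ndufa4 (110494772) has a smaller one, and replicate 1 of day 90 (orange circle) lies apart from the other day 90 libraries for COX7A and COX5B.

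Among the genes that assemble complex IV, the copper chaperone Cox17 (110520411) had 45.9, 47.2 and 49.4 FPKM at day 1 and 84.2, 84.2 and 92.1 FPKM at day 90, a log2 fold change of 1.25 ± 0.10 (edgeR, BH-adjusted p = 4.2e-06). Replicate 1 of day 90 did not stand apart there. Cox15, which makes heme A, was higher with TMM (0.59, edgeR, BH-adjusted p = 0.00071) and not called by library size alone. Another Cox17 locus (MSTRG.33734) was higher at 0.63, a call lost without replicate 1 or replicate 2 of day 1 and by library size alone (0.23), and Cox10 and COX11 did not pass, at -0.42 and 0.04.

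Complex V is the ATP synthase. Of 30 tested nuclear genes, 16 were higher, 1 was lower and 13 did not pass, beside 32.5% higher and 35.4% lower of all genes. Library size alone gave 3 higher and 2 lower, beside 20.2% and 50.6% of all genes. The median was 0.41 with TMM, 0.00 by library size alone and -0.91 with keratinocyte scaling. With TMM, 29 of 30 lay within 2-fold. Of the F1 part, which holds the catalytic head and the central stalk, 6 of 11 genes were higher, of the peripheral stalk 6 of 8, and of the membrane sector Fo 4 of 11. The catalytic beta subunit ATP5F1B, the most abundant of its head, had 274, 276 and 277 FPKM at day 1 and 333, 261 and 235.6 FPKM at day 90 for copy 100136600, and its copy 110495788 had 275, 278 and 299 FPKM against 296, 221 and 216 FPKM. The ages overlapped for both copies and neither passed (0.40 and 0.18).

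ATP5F1E (110492344), the small epsilon subunit of the central stalk, was the gene of complex V furthest from the rest. It had 48.3, 49.5 and 44.8 FPKM at day 1 and 95.8, 94.5 and 85.1 FPKM at day 90, with a log2 fold change of 1.34 ± 0.11 (edgeR, BH-adjusted p = 5.5e-06), 0.94 by library size alone and 0.01 with keratinocyte scaling. Replicate 1 of day 90 was close to replicate 2 in this gene. Atp5f1a (110523348), a minor copy of the alpha subunit, had 26.2 ± 0.58 FPKM at day 1 and 34.6 ± 2.9 at day 90 (SD, n = 3), a log2 fold change of 0.79 ± 0.12 (edgeR, BH-adjusted p = 0.00023). ATP5PD (110487485), of the peripheral stalk and among the most abundant, had 223 to 249 FPKM at day 1 and 257 to 356 FPKM at day 90 and a log2 fold change of 0.74 (edgeR, BH-adjusted p = 0.0033), which did not pass by library size alone at 0.33.

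The c subunit, ATP5MC, forms the rotating membrane ring and is encoded in mammals by 3 genes for the same mature protein. Of 5 tested copies, Atp5mc3 (110486176) was higher (0.70, edgeR, BH-adjusted p = 0.0077, 0.45 without replicate 1 of day 90, and not called by library size alone at 0.30), as was Atp5mc3 (110527607) at 0.39, a call lost by library size alone (-0.02) and when any of 5 of the 6 libraries was left out. ATP5MC3 copies 110501942 and 110520125 and Atp5mc3 (110538098) did not pass, at -0.12, 0.12 and 0.14, the first of these lower by library size alone at -0.52, and Atp5mc1 (110490042), at 0.21 FPKM or less, was not tested. Their summed FPKM was 814, 866 and 882 at day 1 and 936, 725 and 653 at day 90, so that the ages overlapped. The e subunit ATP5ME was the only complex V subunit with copies called in opposite directions, MSTRG.6873 at 0.76 (0.46 without replicate 1 of day 90, and 0.36 and not called by library size alone) and MSTRG.18638 at -0.36. The latter call was lost when any of 5 of the 6 libraries was left out.

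Over all complexes, 62 of the 74 nuclear subunits had at least 2 tested copies. All tested copies were higher in 22 subunits and all were lower in none, and copies were called in opposite directions in 7. Gene by gene, 32.5% of all genes were higher and 35.4% lower, and no such count was made for duplicate genes outside the members. The opposite calls in SDHB, SDHC and ATP5ME rested on a lower call that was lost when single libraries were left out. Ratios of day 90 over day 1 in summed FPKM ran from 0.72 to 1.61 with a median of 1.10. Such a ratio must by arithmetic lie within the range of its copies. The ages overlapped for 49 of the 74 sums, while 75.2% of all genes tested did not overlap in FPKM. NDUFB6 copies 110497180 and 110497183 held identical counts in all libraries, so they may be a single locus counted under both names.

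The mitochondrial genome encodes some of the core subunits of complexes I and III, the catalytic core of complex IV and part of the membrane sector of complex V. Its 13 genes took 2.94%, 3.10% and 3.36% of counts at day 1 and 4.38%, 3.96% and 3.79% at day 90. All day 90 libraries were above all day 1 libraries, with replicate 1 the highest. CYTB, the cytochrome b of complex III, had 3093, 3279 and 3597 FPKM at day 1 and 6575, 5880 and 5581 FPKM at day 90. Its groups were well apart, and its log2 fold change of 1.24 ± 0.17 (edgeR, BH-adjusted p = 0.00016) was the largest of the 13, at 0.84 by library size alone and -0.09 with keratinocyte scaling.

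ND3, a small complex I subunit, had 537, 551 and 571 FPKM at day 1 and 1117, 892 and 785 FPKM at day 90, a log2 fold change of 1.15 ± 0.17 (edgeR, BH-adjusted p = 0.00029). ATP8, a small subunit of complex V, had 109, 107 and 101 FPKM at day 1 and 182, 184 and 155 FPKM at day 90, a log2 fold change of 1.11 ± 0.12 (edgeR, BH-adjusted p = 3.3e-05). Neither gene overlapped between the ages. COX1, the catalytic subunit of the oxidase, had 7062, 7336 and 7853 FPKM against 10032, 9159 and 8613 FPKM, a log2 fold change of 0.71 ± 0.17 (edgeR, BH-adjusted p = 0.0053). COX2, which binds cytochrome c, had 7582, 8163 and 8896 FPKM against 9937, 9452 and 9731 FPKM, a log2 fold change of 0.63 ± 0.16 (edgeR, BH-adjusted p = 0.0064). Both had day 90 above day 1 in every library, COX2 without a call by library size alone.

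The other called genes were COX3 (0.84), ND2 (0.84), ND4L (0.83), ATP6 (0.73) and ND1 (0.63), all below 0 with keratinocyte scaling. ND1 and ATP6 did not pass by library size alone. ND4, ND5 and ND6 were not called, at 0.35, 0.10 and 0.16. ND5 had 716, 769 and 693 FPKM at day 1 and 626, 553 and 601 FPKM at day 90, with day 1 above day 90 in every library, and was called lower by library size alone at -0.30. ND6, the only protein gene of the light strand, had 343, 385 and 498 FPKM against 367, 341 and 346 FPKM, so that the ages overlapped.

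**Figure D3:**
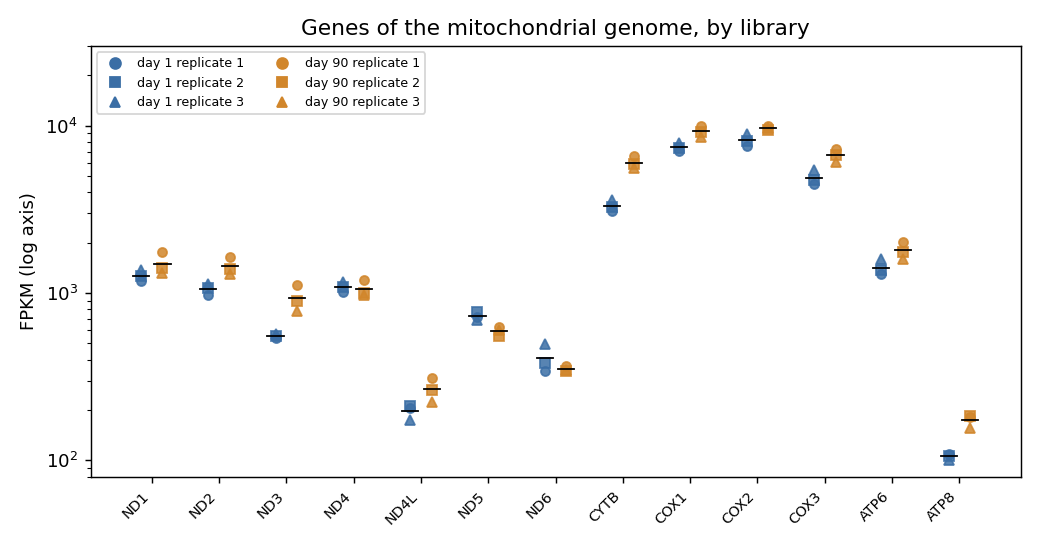
FPKM of the 13 genes of the mitochondrial genome in each library (log axis), with day 1 in blue, day 90 in orange and bars at group means. CYTB, ND3 and ATP8 separate most between the ages, ND5 lies lower at day 90 (601 FPKM in replicate 3), and ND1, ND4 and ND6 overlap. With keratinocyte scaling the log2 fold changes of all 13 genes lie below 0.

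Within the mitochondrial genome the makeup changed, in shares that no scaling between libraries alters. CYTB made up 12.1% ± 0.1 of mitochondrial gene counts at day 1 and 16.9% ± 0.16 at day 90 (SD, n = 3). ND5 made up 4.48%, 4.55% and 3.79% and then 2.63%, 2.56% and 2.91%. ND4 went from 4.75%, 4.81% and 4.77% to 3.78%, 3.46% and 3.56%. For these genes the libraries of an age agreed closely and the ages did not overlap, beside 75.2% of all genes whose FPKM did not overlap. ND6 went from 0.673% ± 0.086 to 0.452% ± 0.020 and ND3 from 0.612% ± 0.022 to 0.793% ± 0.084 (SD, n = 3), while ND1, ND2, ND4L and ATP6 overlapped. The ratio of CYTB to ND5 in FPKM was 4.32, 4.26 and 5.19 at day 1 and 10.5, 10.6 and 9.29 at day 90. Reads of the overlapping ATP8 and ATP6, of ND4L and ND4, and of the antisense ND6 and ND5 may be exchanged in the counting, for which the use of strand is unstated in the sources.

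Nuclear and mitochondrial genes were set against each other within each library, a ratio that does not depend on scaling between libraries. Counts of the 13 mitochondrial genes were 2.88, 2.93 and 3.08 times those of the nuclear subunits at day 1 and 3.33, 3.82 and 3.97 times at day 90. All day 90 libraries were above day 1, with replicate 1 the nearest. The mean ratio was 2.96 ± 0.11 at day 1 and 3.71 ± 0.33 at day 90 (SD, n = 3), and an exact permutation test of 3 against 3 libraries cannot go below p = 0.10, so none was run.

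Taken by complex and per length, the ages separated in complexes III and V. For complex III, the FPKM of CYTB over the summed FPKM of the nuclear subunits was 2.87, 2.93 and 3.06 at day 1 and 4.87, 5.59 and 5.81 at day 90. For complex V, the same ratio was 0.396, 0.400 and 0.449 and then 0.481, 0.544 and 0.542, so that neither complex overlapped between the ages. Complex I gave 2.01, 2.07 and 2.12 against 2.09, 2.14 and 2.22, and complex IV gave 6.53, 6.53 and 7.07 against 6.26, 7.37 and 7.68. In both the ages overlapped, and in complex IV replicate 1 of day 90 was the lowest of all libraries.

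**Figure D4:**
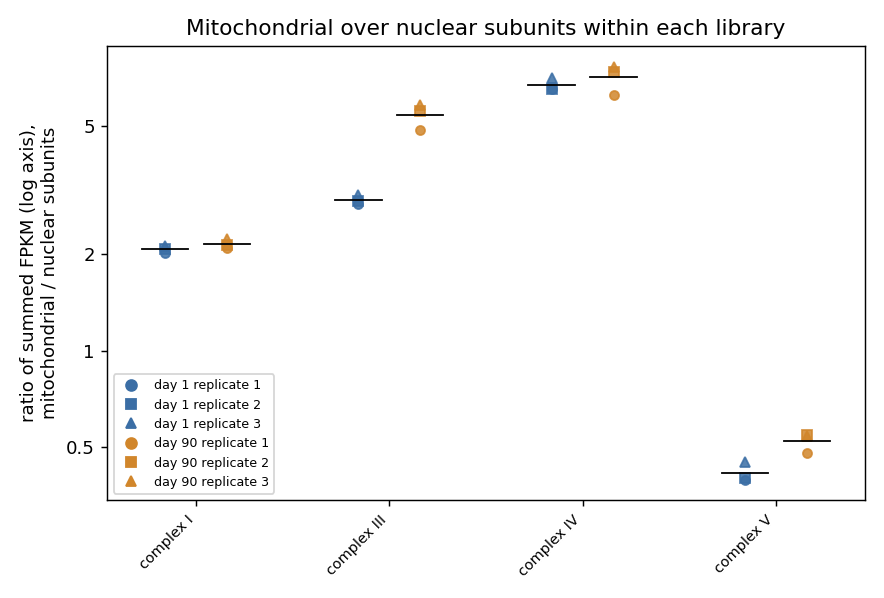
Summed FPKM of mitochondrial subunits over summed FPKM of nuclear subunits of the same complex, within each library (log axis). Blue points are day 1 libraries, orange points day 90 libraries and bars group means. Complex III goes from a mean of 2.95 to 5.42 and complex V from 0.415 to 0.522 without overlap, while complexes I and IV overlap.

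The V-type ATPase pumps protons into vesicles and across membranes with a V1 head that splits ATP and a V0 sector in the membrane. At day 90, 12 of its 23 genes were lower, 4 were higher and 7 were not called, beside 35.4% lower and 32.5% higher of all genes. The median was -0.44 (-0.83 by library size alone and -1.78 with keratinocyte scaling). Library size alone gave 19 lower and 4 higher, beside 50.6% and 20.2% of all genes. Its genes took 0.103%, 0.105% and 0.108% of counts at day 1 and 0.0658%, 0.0686% and 0.0659% at day 90. The groups were far apart, and replicate 1 of day 90 was not the highest library for most of the genes, being so for 6 of 23. Markers of ionocytes, the ion-transporting cells of fish skin that are rich in this pump, ranged from 0.0133% to 0.017% of counts in the day 1 libraries and from 0.00651% to 0.00774% in those of day 90, with 5 of 8 tested genes lower, 1 higher, and 3 of 11 genes, FOXI1 among them, at 0 at day 90. The day 1 levels of the genes at 0 are not given here. The part of ionocyte markers in the result was not tested.

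Of the 18 V1 genes, 10 were lower and 1 was higher, beside 35.4% lower and 32.5% higher of all genes. Library size alone gave 17 lower and 1 higher, beside 50.6% and 20.2% of all genes. The summed FPKM of the V1 genes was 467, 481 and 486 at day 1 and 317, 333 and 315 at day 90. ATP6V1A (110535360), a copy of the catalytic subunit, had 8.3, 8.12 and 9.3 FPKM at day 1 and 2.28, 1.95 and 1.59 FPKM at day 90, a log2 fold change of -1.75 ± 0.17 (edgeR, BH-adjusted p = 1.7e-05). ATP6V1B2 (110509654), whose product is named a brain isoform, had 306 counts over the day 1 libraries and 0 over the day 90 libraries, so it was at least 74.0-fold lower against a floor of 3 counts over the group. Neuron markers were lower in the same libraries, and their part in this was not tested. ATP6V1B2 (110509654) reached the FPKM minimum of the filter only at day 1. The copies of ATP6V1G, of the peripheral stalk, were called in opposite directions. ATP6V1G1 (100305271) had 49.1, 51.1 and 52.8 FPKM at day 1 and 92.9, 95.4 and 85.1 FPKM at day 90 (1.22 ± 0.12, edgeR, BH-adjusted p = 1.2e-05), and ATP6V1G1 (110509681) had 64.5, 70.8 and 76.5 FPKM against 37.0, 35.0 and 31.8 FPKM (-0.64 ± 0.13, edgeR, BH-adjusted p = 0.0018). Their sum overlapped between the ages, at 122 ± 7.8 and 126 ± 7.7 FPKM (SD, n = 3).

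The V0 genes of the set all encoded subunit e, a small membrane protein with the forms e1 and e2. ATP6V0E2 (110485583) had 34.3, 32.7 and 41.8 FPKM at day 1 and 5.22, 5.27 and 5.76 FPKM at day 90, a log2 fold change of -2.36 ± 0.14 (edgeR, BH-adjusted p = 6e-07). ATP6V0E1 (118938718) had 11.2, 13.2 and 11.2 FPKM at day 1 and 34.1, 33.9 and 28.2 FPKM at day 90, a log2 fold change of 1.83 ± 0.14 (edgeR, BH-adjusted p = 2.7e-06). Both e2 copies were lower and all 3 e1 copies were higher, except that ATP6V0E1 (110504600) was at -0.07 with keratinocyte scaling. Summed over the copies of e1 and e2, FPKM was 83.3, 86.5 and 88.9 at day 1 and 86.5, 87.8 and 86.0 at day 90, so the exchange left the sum overlapping.

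**Figure D5:**
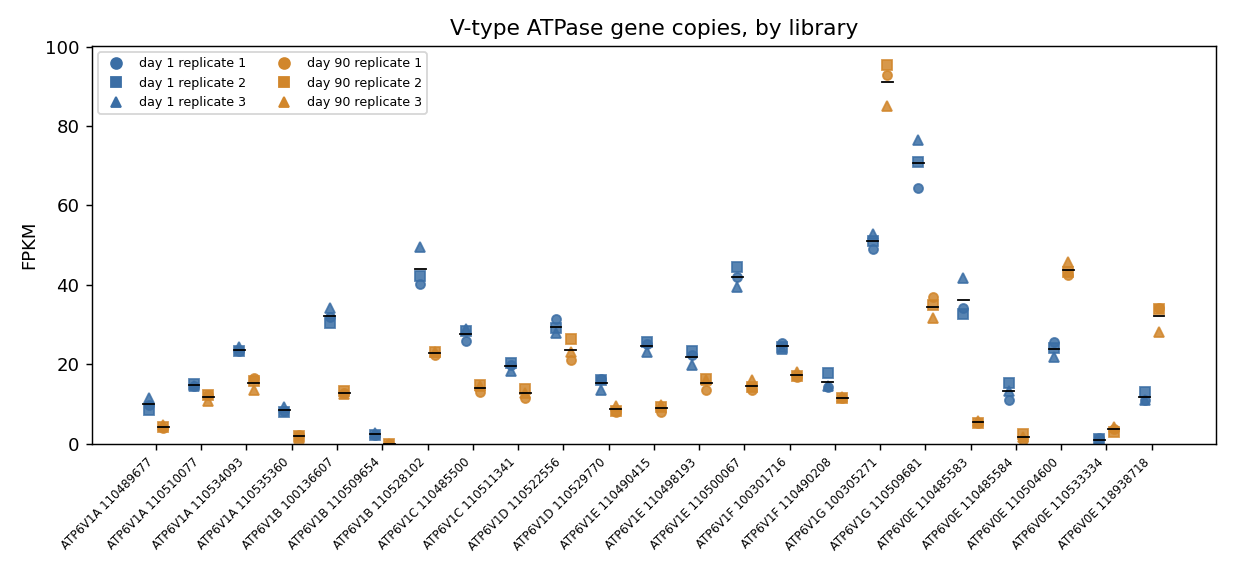
FPKM of the 23 V-type ATPase gene copies in each library, with day 1 in blue, day 90 in orange and bars at group means. The V1 copies lie lower at day 90 except ATP6V1G 100305271, which has 85.1 to 95.4 FPKM at day 90 against 49.1 to 52.8 at day 1. Of subunit e, copies 110504600, 110533334 and 118938718 lie higher and copies 110485583 and 110485584 lower at day 90, and with keratinocyte scaling the log2 fold changes of 100305271 and 110504600 are -0.11 and -0.07.

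The remaining genes of the pathway lay outside the membrane complexes of mitochondria. Of 6 tested pyrophosphatase genes, which split the pyrophosphate released by biosynthesis, 2 were higher, 1 was lower and 3 did not pass. Of all genes, 32.5% were higher and 35.4% lower. The lower pyrophosphatase gene was lhpp (MSTRG.42882, -0.87), a call lost without replicate 2 or 3 of day 1 or replicate 3 of day 90. The pyrophosphatase median was -0.17 (-0.57 by library size alone). The 4 genes of the H+/K+-ATPase, the acid pump of the stomach, were too low to test.

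Genes that work with the complexes but lie outside the pathway genes did not show the shift of the subunits with TMM scaling. Of 54 tested assembly factors, 10 were higher, 13 were lower and 31 did not pass, with a median of 0.04. All genes tested were 32.5% higher and 35.4% lower. Of 31 citrate cycle genes, 4 were higher and 6 lower, with a median of 0.02, and of 100 mitochondrial ribosomal protein genes, which translate the mitochondrial messages, 19 were higher and 15 lower, with a median of -0.00. By library size alone the medians were -0.36, -0.38 and -0.40, close to the -0.43 of all genes. Among the members with the smallest adjusted p in each direction, the assembly factors were COX16 (100305264, 0.75) and LYRM7 (110523148, -1.32), and the citrate cycle genes were OGDH (110526099, 0.72) and ogdh (110509550, -2.12), copies of the same enzyme. The ribosomal proteins were Mrpl44 (110507170, 1.22) and Mrpl12 (110487119, -0.90).

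Of 24 genes for cytochrome c and coenzyme Q, the mobile electron carriers, 9 were higher and 4 lower, beside 32.5% and 35.4% of all genes. Their median was 0.09, and coq4 (MSTRG.39464, 1.73) and Pdss2 (110497775, -0.82) had the smallest adjusted p in each direction. The main cytochrome c copies, cyc (110501918) with 128 ± 6.7 FPKM at day 1 and 88.1 ± 25 at day 90 and cyc (110520139) with 49.6 ± 4.6 and 45.8 ± 2.8 FPKM (SD, n = 3), did not pass with TMM scaling, and the former was lower by library size alone at -0.54. A further copy, cyc (110496560), had 1 count over the day 1 libraries and 89 over the day 90 libraries, a 122-fold difference in scaled counts with an exact 95% interval for counting error of 21.0 to 4870. With 1 count at day 1, this copy could not pass the FPKM filter without the day 90 libraries, so being tested went with that direction.

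Regulators of mitochondrial biogenesis were lower in 9 of 15 genes and higher in 3, beside 35.4% and 32.5% of all genes, with a median of -0.52. Library size alone gave 9 lower and 2 higher, beside 50.6% and 20.2% of all genes, and a median of -0.91. PPARGC1A, the coactivator known as a driver of mitochondrial biogenesis, had 1.41, 1.38 and 1.13 FPKM at day 1 and 0.07, 0.06 and 0.09 FPKM at day 90 for copy 110500614, a log2 fold change of -3.61 ± 0.29 (edgeR, BH-adjusted p = 4e-06). Its copy 100462762 had 1.55, 1.44 and 1.14 FPKM against 0.06, 0.06 and 0.02 FPKM (-4.11 ± 0.39, edgeR, BH-adjusted p = 1.3e-05). Both copies were low at day 1 and near 0 at day 90, in libraries where muscle and neuron markers were lower too, and the part of those markers was not tested. Both reached the FPKM minimum of the filter only at day 1, so being tested at all went with that direction. They count among the 9 lower genes. The respiratory factor nrf1 was lower in both copies (110490605 at -1.53 and 110490610 at -0.36), the latter a call lost without replicate 3 of day 1 (-0.31, edgeR, BH-adjusted p = 0.052). Both copies of GABPA, the DNA-binding part of the other nuclear respiratory factor, were higher at 0.68 and 0.88, and were at -0.65 and -0.44 with keratinocyte scaling.

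Of 21 genes of mitochondrial transcription and replication, 3 were higher, 2 lower and 16 not called, beside 32.5% higher and 35.4% lower of all genes. MTERF2 (110490453), a transcription factor, had 0.61, 0.68 and 0.89 FPKM at day 1 and 3.11, 3.02 and 2.71 FPKM at day 90 (2.40 ± 0.24, edgeR, BH-adjusted p = 1.8e-05). It reached the FPKM minimum of the filter only at day 90. Twnk (110491537), the replicative helicase, had 3.88, 4.48 and 4.32 FPKM against 1.01, 1.33 and 1.21 FPKM (-1.45 ± 0.15, edgeR, BH-adjusted p = 2.6e-05). TFAM (118936623), which packages the mitochondrial genome, was lower at -0.49 (edgeR, BH-adjusted p = 0.009). The mitochondrial genes themselves took a larger share of counts at day 90 in the same libraries.

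Of 14 carrier and uncoupling protein genes, 2 were higher, 6 lower and 6 not called, beside 32.5% higher and 35.4% lower of all genes. The uncoupling protein copies ucp2 (110498444) and ucp2 (110498443) had counts in every day 1 library and 0 over the day 90 libraries, at least 72.0-fold and 57.0-fold lower against a floor of 3 counts over the group. Neither could reach the FPKM minimum of the filter at day 90, so being tested went with that direction. The main copies ucp2 (100136683) and ucp2 (100136329) overlapped between the ages and did not pass. Slc25a5, the carrier that exchanges ADP for ATP, had copies in both directions. Slc25a5 (110488772) was higher with TMM scaling (0.59, edgeR, BH-adjusted p = 0.0092) and not called by library size alone (0.19), and Slc25a5 (110534290) was lower, with 246, 253 and 288 FPKM at day 1 and 123, 25.9 and 30.7 FPKM at day 90 (-1.71 ± 0.54, edgeR, BH-adjusted p = 0.019), a value that was -2.89 without replicate 1 of day 90 and a call that was lost without replicate 3 of day 1. Replicate 1 of day 90, the library with the most muscle markers at that age, lay between the day 1 libraries and the others. The part of those markers in this gene was not tested.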

How the data were processed

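RNA sequencing of 6 dorsal skin libraries of yellow mutant rainbow trout was analysed from the authors' deposited table, which pairs a whole-number count and an FPKM per gene and library. The submitters' processing notes list TopHat2 2.1.1 and Bowtie2 2.2.8 and give neither a purpose. The counter, its use of strand and the genome build are unstated in the sources read here, so no coordinates are printed. Raw counts were taken as deposited, and FPKM values as deposited by the authors were used for levels. The authors' deposited log2 fold changes of mean FPKM, and their deposited p-values and FDR from an unnamed test, were not used. The design text names another stage, which is not analysed here.

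Genes with at least 1 FPKM in at least 3 of 6 libraries were tested. Counts were fitted with edgeR 4.0.16 (R 4.3.3, TMM, quasi-likelihood, age as the only term), with Benjamini-Hochberg adjustment over all 29436 genes. The code was tested on simulated data. The members and lists were chosen with earlier results of these data known. Complexes were assigned from the deposited KEGG orthology identifiers, and related lists and markers by symbol. Some symbols whose product name belonged to another gene were left out after they were seen. Others stayed, such as Ttn (110488582, vascular cell adhesion protein 1-like) in the muscle list and MYH6 (118966736, fast skeletal muscle myosin) in the heart list. Named genes were all 13 mitochondrial genes; per complex the 3 nuclear genes with the highest mean FPKM and the 2 with the smallest adjusted p in each direction; all copies of subunits with tissue isoforms; and of the V-type ATPase and each related list the smallest adjusted p in each direction. Copies further described to show exchange within a subunit or a list were chosen after their values were seen. All 200 NCBI gene numbers among the nuclear members matched RefSeq (USDA_OmykA_1.1), which was used for names and neighbours, and 16 were assembled loci without a number. Counting intervals and floors cover counting error only.

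Alternatives were library size alone, median-of-ratios factors, DESeq2 1.42.0, limma 3.58.1 on log2(FPKM + 1) and log2(FPKM + 0.1), no filter, an FPKM minimum of 5, keratinocyte scaling, a replicate block and each library left out. No sequence is printed, because no table of sequences was used here.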

Additional observations from a re-analysis of the deposited data

How the results depend on the processing

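Scaling decided the direction of the medians. By library size alone, the nuclear subunits had 40 genes higher and 31 lower with a median of 0.12. The mitochondrial genes had 7 higher and 1 lower with a median of 0.33, beside 20.2% and 50.6% of all genes. Medians for complexes I to V were then 0.16, -0.07, -0.13, 0.13 and 0.00, and -0.83 for the V-type ATPase. Limma on log2(FPKM + 1) and on log2(FPKM + 0.1) gave 43 and 42 nuclear genes higher, 32 lower in each (20.7% and 20.3% of all genes higher, 50.8% and 50.3% lower), 6 mitochondrial genes higher with the smaller pseudocount and 1 lower in each. The medians of limma were 0.11 for nuclear subunits and 0.34 for mitochondrial genes with both, 0.16 and 0.17 for complex I, -0.06 for complex II, -0.12 and -0.13 for complex III, 0.13 for complex IV, 0.00 for complex V, and -0.75 and -0.81 for the V-type ATPase. With keratinocyte scaling, 4 nuclear genes were higher and 133 lower, no mitochondrial gene was higher and 4 were lower, beside 6.76% and 80.9% of all genes. The medians were -0.80 (nuclear), -0.60 (mitochondrial), -0.75, -0.99, -1.06, -0.79 and -0.91 (complexes I to V) and -1.78 (V-type ATPase). Among named genes called higher, that scaling reversed the sign to -0.70 (ND1), -0.85 (NDUFB2), -0.49 (Ndufa1), -0.70 (NDUFC1), -0.89 and -0.72 (sdhb 110494374, SDHC 110508324), -0.96 (COX4I1 110492636), -0.81 (COX7A2 110498059), -0.65 in each (Cox6b1 110509074 and 110537243), -0.96 (COX8B 110534122), -0.59 and -0.55 (ndufa4 100653434 and 110538650), -0.61 and -0.94 (Atp5mc3 110486176 and 110527607), -0.58 (ATP5PD), -0.55 (Atp5f1a), -0.73 (Slc25a5 110488772), -0.65 (Gabpa 110502012), -0.59 (COX16) and -0.60 (OGDH 110526099), each called lower. An FPKM minimum of 5 left 9742 genes called, since fewer were tested, and a V-type ATPase median of -0.59, and no filter gave -0.39. DESeq2 and median-of-ratios factors kept the nuclear and mitochondrial counts within 1.5 times.

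Leaving out each library gave 75 to 112 nuclear genes higher and 10 to 20 lower, and a V-type ATPase median of -0.51 to -0.41. Across all genes the same fits called 28.6% to 31.4% higher and 32.0% to 36.4% lower. The cause of these changes was not tested.

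For each gene, the mean of an age was subtracted from the log2 scaled counts of the libraries of that age. What remained correlated between same-numbered libraries at -0.067, 0.007 and -0.088, so replicate numbers were not treated as pairs. With the replicate block, 87 nuclear genes were higher and 11 lower, beside 29.8% and 33.3% of all genes.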
